A study of Mus musculus with 6 samples.

Results

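The annexins are a family of proteins that bind membrane phospholipids when calcium is present. The 8 annexin genes described here are Anxa1, Anxa2, Anxa3, Anxa4, Anxa5, Anxa6, Anxa7 and Anxa11, taken by name from 12803 genes listed for 6 libraries of mouse kidney podocyte cells. The members were chosen by their measured levels, in log2 counts per 1000000 reads (CPM), in the KO against the WT libraries, so the difference between these lines is given for them as a description, without a test. The table lists 10 annexins in all, and the other two, Anxa8 and Anxa9, are treated separately.

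The WT group held 3 libraries of the murine podocyte line that the labels call Mundel, with the genotype WT. A podocyte-derived line with the genotype Myosin 1e KO gave the 3 KO libraries; Myosin 1e is a motor that links membranes to actin. The labels give kidney as the tissue of both and name no treatment, culture time or age. Each genotype is 1 cell line, so genotype and any other difference between the lines cannot be told apart. Nothing in the labels says how the replicate cultures were kept apart, so p-values measure only the spread between these samples, which may be technical. A library held between 35447096 and 42106461 reads in the listed genes.

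The labels were checked with the targeted gene and with markers. Myo1e was at 17.3 ± 1.4 CPM in KO and 177 ± 8.4 CPM in WT (SD, n = 3 libraries each), a log2 difference of -3.35 (limma, adjusted p = 2.1e-08, and an exact two-sided permutation p = 0.1, the smallest that 3 against 3 allow). Of 10 podocyte markers 6 were listed, and the slit diaphragm gene Nphs1 was not among them. The listed podocyte markers summed to between 620 and 828 CPM in the KO libraries and between 1166 and 1386 CPM in WT. Of these 6, 2 were called higher in KO and 3 lower. These counts, and those of the lists below, stand beside 34.3% called higher and 33.8% lower over all genes tested (limma, adjusted p under 0.05). Plce1 fell from a mean of 226 to 1.37 CPM, Wt1 from 4.40 to 0.125 CPM and Synpo from 681 to 209 CPM. Podxl rose from 50.4 to 106 CPM and Cd2ap from 275 to 390 CPM. The parietal epithelial markers, all 6 listed, summed to between 4038 and 4251 CPM in KO and between 892 and 914 CPM in WT, and Krt18 among them had 0 reads in WT replicate 3. The higher KO sum came from Krt8, Krt18 and Cldn1, which rose, whereas Pax2 fell from a mean of 352 to 60.7 CPM, and Pax8 and Cd44 were also called lower. For mesangial cells, pericytes and fibroblasts, 5 of 9 markers were listed, with sums between 327 and 652 CPM in KO and between 3466 and 3869 CPM in WT, and all 5 were called lower in KO. Tubular markers, 6 of 11 listed, summed to between 1297 and 1444 CPM in KO and between 1564 and 2446 CPM in WT, a sum of opposite changes. The junction and adhesion genes Cdh1 and Epcam, which other epithelia share, rose from 0.525 to 891 CPM and from 0.0431 to 386 CPM, while Aqp1 fell from 640 to 2.7 CPM, Lrp2 from 331 to 14.05 CPM and Cdh16 from 975 to 92.5 CPM. Endothelial markers were down to 1 of 6, at most 10.3 CPM in KO and 41.6 CPM in WT, and leukocyte markers to 1 of 6, at most 3.44 CPM in any library. These marker sums differ between the lines together with the annexins, and their part in the annexin levels was not tested. In bulk RNA, fewer cells of a type and less RNA per cell cannot be told apart.

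Annexins share a core of repeated helical domains that bind calcium and acidic phospholipids, above all phosphatidylserine, and differ in the amino-terminal tail, which carries the binding sites for partners. Several members pair with small calcium sensors of the EF-hand type. They are known for work at the inner face of the plasma membrane, in membrane repair, in vesicle traffic and in linking membranes to actin. Anxa1 and Anxa2 are also found at the cell surface, the first as an anti-inflammatory protein that acts on formyl peptide receptors and the second as a docking site for plasminogen and its activator.

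The promoters of Anxa1 and Anxa2 are shown because these members lie at the ends of the series of differences described next, Anxa1 with the largest excess in KO and Anxa2 as the member with a lower mean in KO. Of the 8 members, 6 had a RefSeq promoter (GRCm38.p6) in the table used, in 8 windows of 300 bases. Each window runs from 250 bases before a RefSeq start site to 50 after it. The GENCODE starts of these genes, given below, differ. The printed Anxa1 stretch lies inside its GENCODE gene, and the end of the Anxa2 stretch reaches into its own. The 250 bases before the RefSeq start are printed 5′ to 3′ on the strand of the gene, with matches to the searched motifs in capitals.
Anxa1 (chr19:20390672-20390921, minus strand): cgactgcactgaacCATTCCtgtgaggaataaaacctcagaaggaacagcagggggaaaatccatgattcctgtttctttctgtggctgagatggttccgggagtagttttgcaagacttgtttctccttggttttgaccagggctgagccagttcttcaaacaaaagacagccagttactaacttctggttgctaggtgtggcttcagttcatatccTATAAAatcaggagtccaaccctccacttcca
Anxa2 (chr9:69453433-69453682, plus strand): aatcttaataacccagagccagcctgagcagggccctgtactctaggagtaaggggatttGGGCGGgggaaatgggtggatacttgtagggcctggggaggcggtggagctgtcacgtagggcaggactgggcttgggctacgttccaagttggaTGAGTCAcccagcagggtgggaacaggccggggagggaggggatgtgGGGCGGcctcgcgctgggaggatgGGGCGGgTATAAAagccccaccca

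A total of 6 motifs was searched on both strands of the 300-base windows, and the share of all 32851 RefSeq promoter windows with a match is given for each. They were the TATA box TATAAA (13.6% of windows), the GC box GGGCGG (35.7%), the AP-1 site TGANTCA (7.81%), the TEAD site GGAATG (14.7%), the E-box CAGGTG (20.2%) and CCAAT (37.4%). Some genes have several windows, and none of the matches overlaps another in the sequences printed. Anxa1 had 1 TATA box and 1 TEAD match on the opposite strand, and no GC box. Anxa2 had 1 TATA box, 1 AP-1 match and 3 GC boxes. Among the other members, GC boxes were found in Anxa4, Anxa7 and Anxa11 and the E-box in Anxa7 and Anxa11, while the Anxa5 window held none of the 6 motifs. A TATA box was thus found in the windows of Anxa1 and Anxa2 and not in those of the other 4 members with a promoter. These matches describe letters in the window and say nothing on binding.

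Anxa1 was the member that separated the lines most. It encodes annexin A1, once called lipocortin, a substrate of the EGF receptor kinase. Its level was 4613, 4044 and 4921 CPM in KO replicates 1 to 3 and 395, 272 and 302 CPM in WT replicates 1 to 3. Every KO library lay far above every WT library. The means were 4526 ± 445 CPM in KO and 323 ± 64 CPM in WT (SD, n = 3), with a difference of 3.82 in log2 CPM (SE 0.16). The gene lies on chromosome 19 from 20373428 to 20390944 on the minus strand (GRCm38, GENCODE M21, protein-coding). It overlaps the span of a long noncoding RNA gene on the opposite strand, 1500015L24Rik, with which it shares no annotated exon. That RNA was at 2.61, 3.68 and 3.13 CPM in the KO libraries and at 0 reads in the WT libraries. The strand setting of the counting is not given in the sources used here, and those levels are small beside Anxa1.

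**Figure D1:**
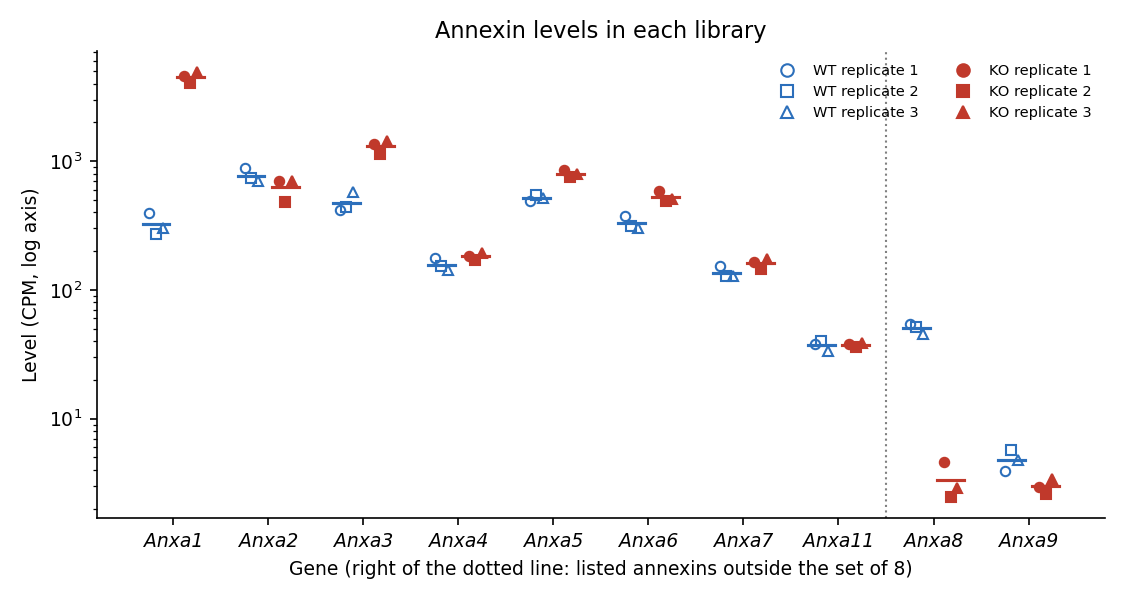
Level of each listed annexin in the 6 libraries, in CPM on a log axis; blue open symbols are WT, red filled symbols KO, each symbol shape is a replicate and short lines are means of 3 libraries. The KO and WT symbols stand apart for Anxa1, Anxa3, Anxa5 and Anxa6 and mix for Anxa2, Anxa4, Anxa7 and Anxa11.

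Anxa3 was the second member with a difference of more than 1 on the log2 scale. Annexin A3 is found in several epithelia and in the granules of neutrophils. It was at 1347, 1132 and 1421 CPM in KO and at 418, 440 and 572 CPM in WT. The lowest KO library was above the highest WT library, WT replicate 3. The means were 1300 ± 150 and 477 ± 84 CPM, 2.73 times as much in KO, and the difference was 1.46 in log2 CPM (SE 0.15). The plus strand of chromosome 5 carries Anxa3, from 96793339 to 96845966.

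Anxa5 and Anxa6 were also higher in all KO libraries than in any WT library, by less than 1 on the log2 scale. Annexin A5 binds exposed phosphatidylserine and is the protein used as a probe for dying cells. It was at 860, 747 and 792 CPM in KO and at 488, 543 and 517 CPM in WT, with a difference of 0.63 in log2 CPM (SE 0.09). Annexin A6, which has a doubled core, takes part in cholesterol traffic and brings regulators of Ras and protein kinase C to the membrane. It was at 589, 489 and 511 CPM in KO and at 372, 314 and 304 CPM in WT, a difference of 0.68 (SE 0.11). The mean level of Anxa5 in KO was 1.55 times that in WT. Anxa5 lies on chromosome 3 from 36448923 to 36475894 and Anxa6 on chromosome 11 from 54979108 to 55033445, both on the minus strand.

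Anxa2 was the member with a lower mean in KO, and its groups overlapped. Annexin A2 forms a tetramer with S100A10, binds actin and phosphoinositides, and serves endocytosis and exocytosis. Its level was 700, 480 and 704 CPM in KO and 879, 734 and 697 CPM in WT. KO replicates 1 and 3 lay at the level of WT replicate 3, and KO replicate 2 lay below all others. The difference was -0.31 in log2 CPM (SE 0.17), and -0.13 without KO replicate 2. The gene spans bases 69453620 to 69491795 of chromosome 9, plus strand.

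Anxa4, Anxa7 and Anxa11 were at similar levels in the lines, with overlapping groups. Annexin A4 is abundant in epithelia and assembles on injured membranes. Anxa4 was at 184, 170 and 194 CPM in KO and at 176, 152 and 143 CPM in WT, a difference of 0.22 in log2 CPM (SE 0.10). Annexin A7, or synexin, fuses secretory granules in the test tube and binds sorcin. Anxa7 was at 166, 146 and 174 CPM in KO and at 153, 128 and 128 CPM in WT, a difference of 0.25 (SE 0.10). For both genes WT replicate 1 reached into the range of the KO libraries.

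Anxa11 was the least abundant member. Annexin A11 has a long disordered tail, binds ALG-2 and tethers RNA granules to lysosomes. It was at 37.8, 36.3 and 38.8 CPM in KO and at 38.3, 40.2 and 33.6 CPM in WT. The KO libraries lay inside the range of the WT libraries, and the difference was 0.01 in log2 CPM (SE 0.09). Without KO replicate 3 it was -0.01 and without WT replicate 3 it was -0.06, so it has no firm sign. Anxa4 lies on chromosome 6 from 86736840 to 86793584 (minus strand), Anxa7 on chromosome 14 from 20455260 to 20480133 (minus) and Anxa11 on chromosome 14 from 25842156 to 25886804 (plus).

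**Figure D2:**
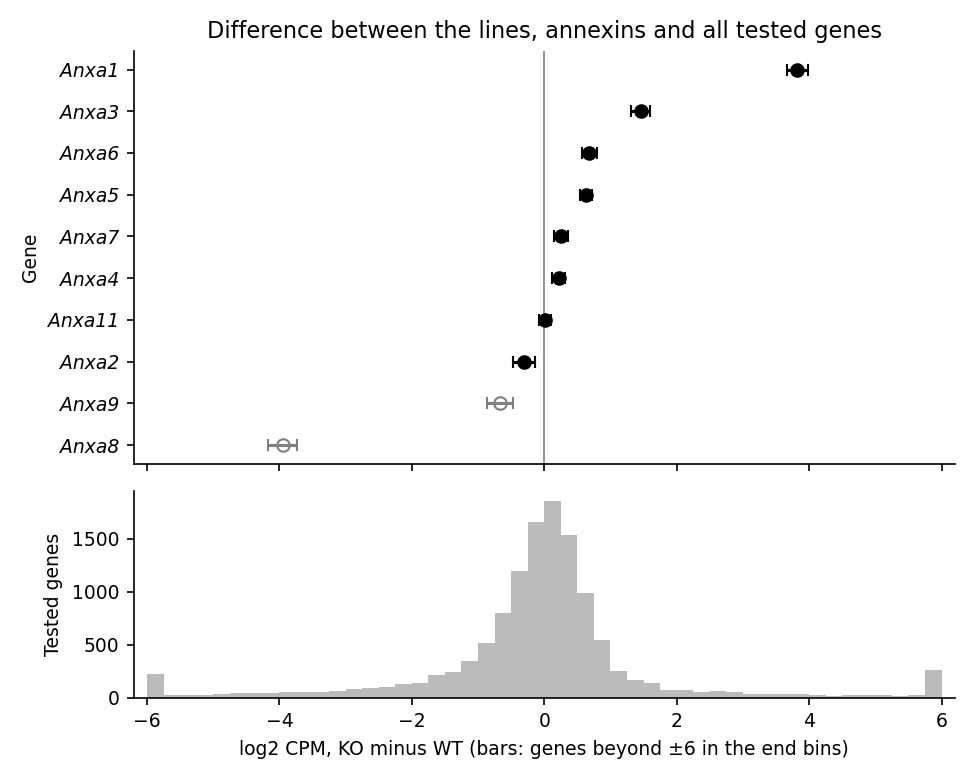
Upper panel, difference in log2 CPM between the lines (KO minus WT) for each listed annexin with its SE, filled for the 8 members and open for Anxa8 and Anxa9; lower panel, the same difference for the 12616 tested genes. The members run from -0.31 (Anxa2) to 3.82 (Anxa1), and the open points lie below them.

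The groups did not overlap in 4 of the 8 members, with KO above in all 4. Over the 12616 genes tested, the groups did not overlap in 73.5%, KO being above in 37.2% and below in 36.4%. Single libraries decide this count of members: without KO replicate 2 or without WT replicate 1 it was 6, with Anxa4 and Anxa7 added (39.4% and 40.5% of the genes tested), and without WT replicate 3 Anxa2 was lower in all KO libraries than in any WT library. The members' median difference was 0.44 in log2 CPM, against 0.01 over all genes tested. A difference of at least 1 was found in 2 members, Anxa1 and Anxa3, and in 11.7% of the genes tested in that direction; no member had a difference of -1 or lower, which 16.2% of the genes tested had. In the order of all tested genes by this difference, Anxa1 stood at percentile 96.3, Anxa3 at 91.4, Anxa6 at 82.1 and Anxa5 at 80.8. Anxa2 stood at percentile 33.6. These figures come from the contrast that chose the members and are read as a description only.

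The 8 genes together took a larger share of the KO libraries. They held 0.835%, 0.716% and 0.891% of the reads in KO replicates 1 to 3 and 0.296%, 0.265% and 0.267% in WT replicates 1 to 3. Summed CPM was 8165 ± 808 in KO and 2746 ± 154 in WT. Without Anxa1 the sum was 3640 ± 381 in KO and 2424 ± 90 CPM in WT, so the groups of libraries still stood apart. Anxa1 alone held 55.4% ± 1.0 of the annexin reads in KO and 11.7% ± 1.6 in WT. The Anxa2 share was 7.64% ± 0.88 in KO and 28.0% ± 2.1 in WT, while the Anxa3 share was 15.9% ± 0.30 and 17.4% ± 3.5. A share can fall because another member is higher, as for Anxa2 here, whose level differed little.

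Levels of different members can be compared only per length of transcript. Per kilobase of joined exons, the order in KO was Anxa1, Anxa5, Anxa3, Anxa6, Anxa2, Anxa4, Anxa7 and Anxa11. Anxa1 led with 1555 ± 153 CPM per kb, followed by Anxa5 with 450 ± 32 and Anxa3 with 357 ± 41 CPM per kb. The libraries of neighbours in this order did not overlap, apart from Anxa6 (181 ± 18 CPM per kb) and Anxa2 (168 ± 34 CPM per kb). At the lower end Anxa4 had 39.3 ± 2.6, Anxa7 27.0 ± 2.4 and Anxa11 9.10 ± 0.30 CPM per kb.

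The order in WT differed at the top and not at the bottom. It ran Anxa5, Anxa2, Anxa3, Anxa6, Anxa1, Anxa4, Anxa7 and Anxa11. Anxa5 had 290 ± 15, Anxa2 206 ± 26 and Anxa3 131 ± 23 CPM per kb. Anxa3 overlapped with Anxa6 (113 ± 12 CPM per kb), and Anxa6 with Anxa1 (111 ± 22 CPM per kb). The other neighbours stood apart in all 3 libraries. Of the annexin transcripts per length, Anxa1 made up 55.8% ± 1.2 in KO and 12.0% ± 1.9 in WT, and Anxa5 16.2% ± 1.0 and 31.8% ± 2.9. The order at the top rests on the length used. With the longest coding transcript of each gene, Anxa1 again led in KO (56.5% of the pool), but Anxa2 led in WT with 33.3% and Anxa5 made up 18.8%.

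**Figure D3:**
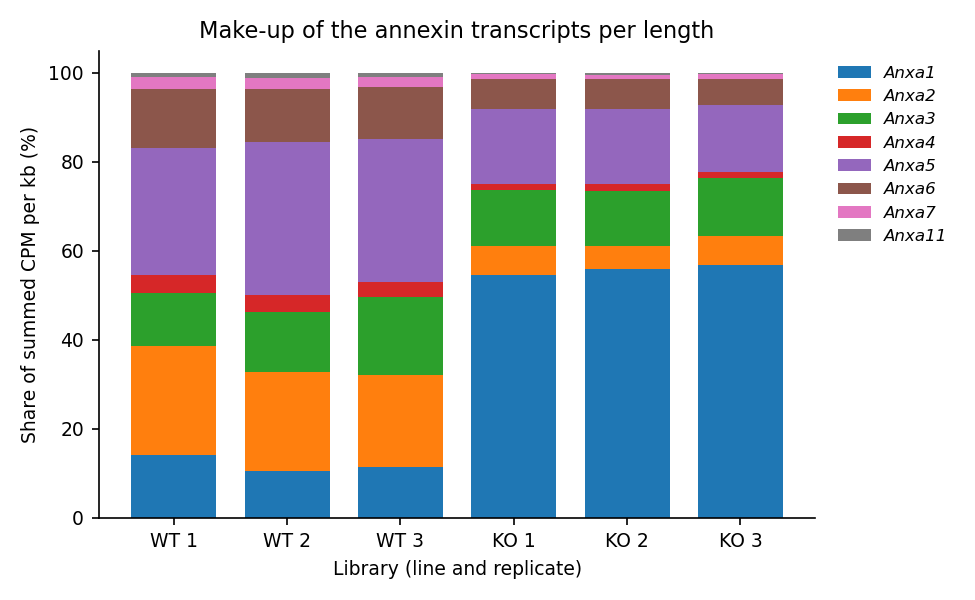
Share of each of the 8 annexins in their summed CPM per kb of joined exons, as stacked bars that reach 100% for each library. Anxa1 takes 55.8% ± 1.2 in the KO libraries and 12.0% ± 1.9 in the WT libraries.

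Set against all 12655 listed genes with a length, Anxa1 was among the most abundant transcripts of the KO line per kilobase. It ranked between 4 and 7 in the KO libraries and between 235 and 371 in the WT libraries. Anxa5 ranked between 39 and 44 in KO and between 68 and 77 in WT. Anxa3 ranked between 52 and 59 in KO and between 183 and 291 in WT, and Anxa2 between 151 and 239 in KO and between 99 and 144 in WT. Anxa11 stood at a similar rank in both lines, between 5173 and 5806 over the 6 libraries.

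The spread of the members between libraries of a line was not used by the rule. KO replicate 2 was the lowest of the KO libraries in 8 of 8 annexins, whereas it was the lowest in 33.6% of all genes tested. It lay below the mean of its line by between 0.05 (Anxa11) and 0.36 (Anxa2) in log2 CPM, with a median of -0.13. In WT, replicate 1 was the highest in 5 of 8 members, against 41.7% of all genes tested. Anxa3 went the other way there, with WT replicate 3 highest, and so did Anxa5 and Anxa11, with WT replicate 2 highest. The members share libraries, so these counts are not independent of each other. KO replicate 2 had the fewest reads of the KO libraries, 35447096. Among the markers, Acta2 was lowest there (322 CPM, against 645 and 532 CPM in replicates 1 and 3) and Synpo highest (282 CPM, against 204 and 140 CPM). Other markers of the same lists did not follow: Gata3 was highest in KO replicate 2, and Pdgfrb and Podxl lay between the other replicates. The part of depth and of these marker differences in the annexin levels of KO replicate 2 was not tested. The pooled SD of a member ran from 0.09 (Anxa5) to 0.26 (Anxa2) in log2 CPM. The fewest reads of a member in a library were 1187 (Anxa11, in WT replicate 3), a counting error of 2.90%. The replicate SD of Anxa11 was 9.14% of the mean in WT. In KO it was 3.30%, little above that error, so counting may make up much of the Anxa11 spread there.

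**Figure D4:**
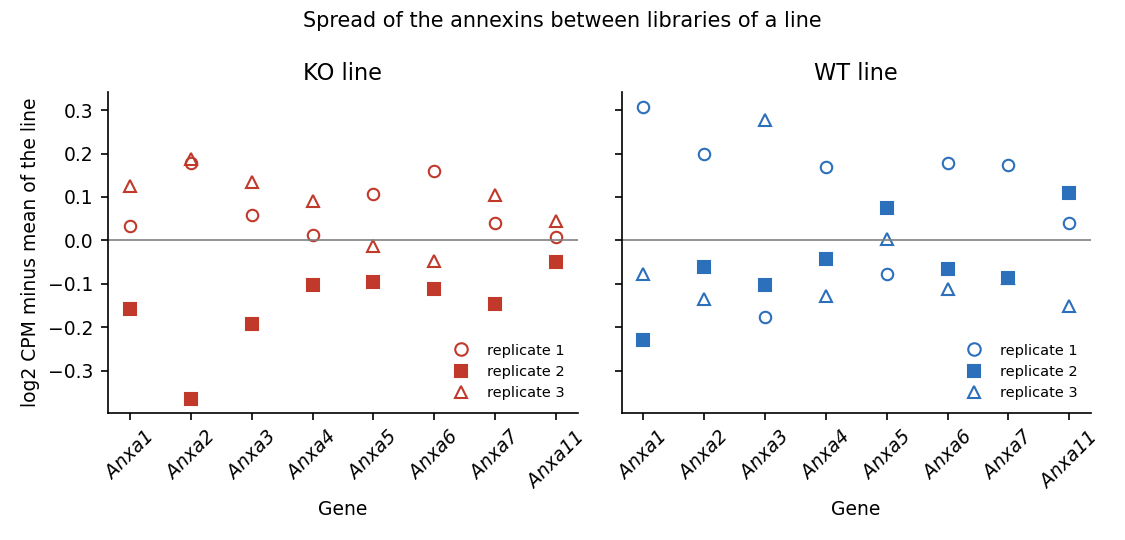
Deviation of each annexin from the mean of its line in log2 CPM, KO left and WT right, with 1 symbol shape for each replicate and replicate 2 filled. In KO the filled squares of replicate 2 are the lowest for all 8 members; in WT no replicate is lowest throughout.

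The listed annexins outside the set lay on the other side. Anxa8, an epithelial member of the family, was at 4.63, 2.48 and 2.92 CPM in KO and at 54.6, 51.1 and 45.5 CPM in WT. Anxa9, a member whose core has lost the usual calcium sites, was at 2.95, 2.60 and 3.40 CPM in KO and at 3.91, 5.67 and 4.75 CPM in WT. Neither gene's groups overlapped. The log2 difference was -3.95 for Anxa8 (limma, adjusted p = 1e-06) and -0.67 for Anxa9 (adjusted p = 0.015). Anxa9 missed the threshold once KO replicate 2 (adjusted p = 0.0536) or WT replicate 2 (adjusted p = 0.0672) was left out, and after quantile normalization (adjusted p = 0.12), with 0.00745 to 0.12 over the alternatives. Since the set was drawn up with values known, the split between members and these 2 genes is not independent of their direction. Anxa10 and Anxa13 were not among the listed genes.

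By likeness of pattern, the genes nearest to a member were sought for the 3 members with the largest differences, by Euclidean distance over the 6 libraries in log2 CPM centred on each gene's mean. Nearest to Anxa1 were Bmpr1b (distance 0.14) and Gm3604 (0.30). Nearest to Anxa3 were Mast1 (0.19) and Fabp5 (0.22), and nearest to Anxa6 were Capn2 (0.08) and Lrsam1 (0.09). With 2 lines of 3 libraries, such a distance mostly reads the difference between the lines. Bmpr1b and Gm3604 were scarce, at 1.67 ± 0.24 and 1.08 ± 0.0026 CPM in KO, where Anxa1 was at 4526 CPM.

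Anxa2 lies on the chromosome of the targeted gene, 716 kb before the start of Myo1e. Of the 5 listed genes that start between them, Gtf2a2 fell from 38.3 ± 0.60 to 30.3 ± 3.0 CPM (log2 difference -0.35, limma adjusted p = 0.011) and Gcnt3 rose from 0.867 ± 0.12 to 3.50 ± 1.1 CPM (1.94, adjusted p = 0.00023). Bnip2 (127 ± 15 CPM in KO, 145 ± 1.5 CPM in WT) and Fam81a (27.1 ± 2.0 CPM in KO, 24.2 ± 2.9 CPM in WT) did not pass (adjusted p = 0.1 and 0.23). Foxb1 was too low to be tested. Means were lower in KO for Anxa2, Gtf2a2 and Bnip2, and higher for Gcnt3 and Fam81a. Every KO library lay below every WT library for Gtf2a2 and Bnip2, and above for Gcnt3. The groups of Anxa2 and Fam81a overlapped. The part of position in these levels was not tested.

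The EF-hand partners of the annexins were tested as genes outside the set, with the threshold of an adjusted p under 0.05 that 68.1% of all genes passed (34.3% higher and 33.8% lower in KO). Of 8 partners 7 were tested, of which 0 rose and 2 fell, with a median log2 difference of 0.10 against 0.01 over all genes. S100a10, the partner of Anxa2, was at 273, 214 and 334 CPM in KO and at 218, 215 and 236 CPM in WT, with overlapping groups (log2 difference 0.27, SE 0.15, limma adjusted p = 0.13, above the threshold). Without KO replicate 2 it passed (0.44, adjusted p = 0.0105), with 0.0105 to 0.394 over the alternatives. S100a11, the partner of Anxa1, had means of 222 ± 19 CPM in KO and 202 ± 26 CPM in WT (log2 difference 0.14, SE 0.11, adjusted p = 0.29). Thus the partner of the member with the largest difference had overlapping groups.

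S100a6, which binds Anxa2 and Anxa11 among others, had means of 1352 ± 445 in KO and 1405 ± 195 CPM in WT and no firm sign (log2 difference -0.10, SE 0.23, adjusted p = 0.72). Its difference was 0.14 without KO replicate 2 and 0.01 without WT replicate 1. The sorcin gene Sri was at 81.7 ± 8.8 and 73.0 ± 9.6 CPM and Pdcd6, which encodes ALG-2, at 71.6 ± 8.6 and 66.3 ± 2.0 CPM, and neither passed (adjusted p = 0.24 and 0.36). The partners that fell were S100a1, from 25.8 ± 4.1 to 3.49 ± 1.1 CPM, and S100a4, from 5.83 ± 1.8 to 0.729 ± 0.17 CPM. Among the KO libraries, replicate 2 was the lowest for 5 of the 7 listed partners, against 33.6% of all genes tested. S100a1 and Pdcd6 were lowest in KO replicate 1. The partners share these libraries with each other and with the annexins, so these counts are not independent.

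Genes of plasminogen activation, which annexin A2 promotes at the cell surface, differed in both directions. Of 6 tested, 2 rose and 3 fell, where 34.3% of all genes were called higher and 33.8% lower. Their median was -0.30 against 0.01 over all genes. Plau, the urokinase gene, was at 4009, 4725 and 4847 CPM in KO and at 91.0, 90.3 and 106 CPM in WT (log2 difference 5.56, limma adjusted p = 6.1e-09). Plat, which encodes the tissue activator that docks on annexin A2, fell from 748 ± 85 to 178 ± 23 CPM (-2.08). The urokinase receptor gene Plaur rose from 29.9 ± 8.0 to 56.8 ± 7.0 CPM and the inhibitor gene Serpine2 fell from 331 ± 24 to 175 ± 13 CPM.

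In plasma membrane repair, where several annexins act, 11 genes rose and 8 fell of the 23 tested, with a median of 0.10. Over all genes tested, 34.3% were called higher and 33.8% lower. Capn2, a calcium-activated protease that takes part in repair, rose from 342 ± 26 to 554 ± 66 CPM, and the ESCRT subunit gene Chmp3 from 116 ± 5.2 to 215 ± 17 CPM. The caveolar genes Cav1 and Ehd2 fell from 446 ± 38 to 62.2 ± 13 and from 404 ± 86 to 102 ± 16 CPM. Phosphatidylserine, the lipid that annexins bind, is moved across the membrane by scramblases and flippases, of which 13 were tested, 4 rose and 5 fell (median -0.10). The flippase genes Atp8b1 and Atp8a1 rose to 33.6 ± 1.8 from 0.166 ± 0.055 CPM and to 39.6 ± 1.9 from 4.02 ± 0.85 CPM. The scramblase genes Plscr4 and Xkr8 fell from 9.41 ± 1.1 to 0.105 ± 0.048 and from 9.35 ± 0.70 to 5.14 ± 0.41 CPM.

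**Figure D5:**
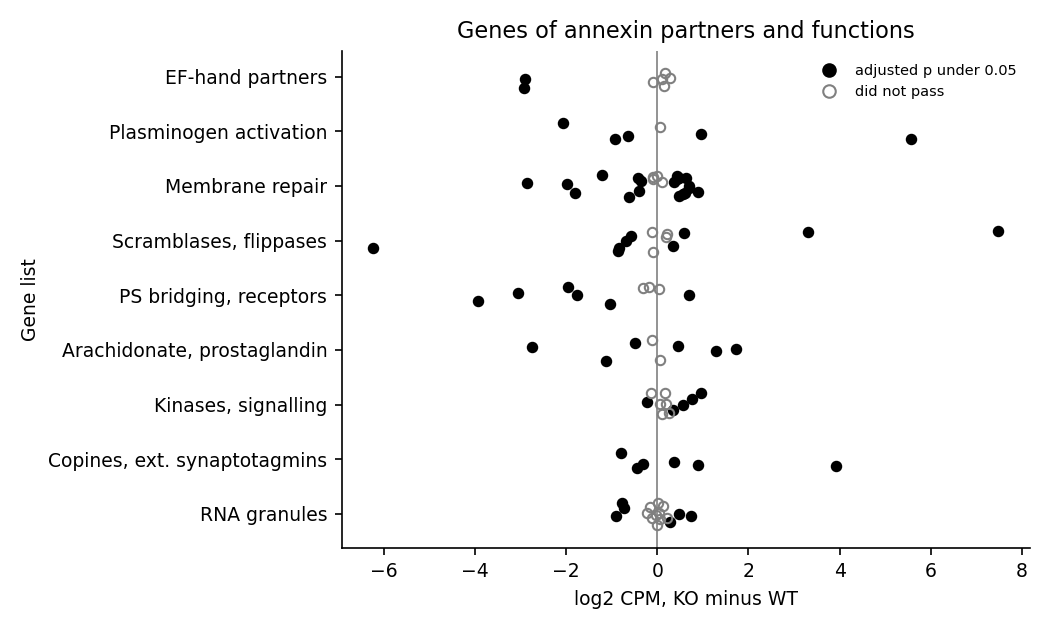
Difference in log2 CPM (KO minus WT) of the tested genes in 9 lists of annexin partners and functions, filled where the limma adjusted p was under 0.05 and open where it was not. Among the EF-hand partners 5 of 7 points are open and lie near 0, and the other lists have filled points on both sides of 0.

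Of 9 tested bridging proteins and receptors that bind phosphatidylserine, 1 rose and 5 fell, with a median of -1.03, where 34.3% of all genes were called higher and 33.8% lower. Pros1 and Gas6, ligands of the TAM receptors, fell from 425 ± 29 to 27.8 ± 1.4 and from 32.0 ± 8.2 to 3.91 ± 1.3 CPM, and the receptor gene Tyro3 rose from 11.7 ± 0.27 to 19.1 ± 0.11 CPM. Annexin A1 is also known as an inhibitor of phospholipase A2, and of 8 tested genes of arachidonate release and prostaglandin synthesis 3 rose and 3 fell (median -0.02). Ptgs2, the inducible cyclooxygenase gene, rose from 10.6 ± 3.2 to 33.9 ± 1.6 CPM and Ptges2 from 15.5 ± 0.35 to 38.0 ± 3.8 CPM, while Pla2g4c fell from 3.89 ± 1.1 to 0.563 ± 0.22 CPM. Ptgs1 fell from 4.23 ± 2.1 to 1.82 ± 0.48 CPM (log2 difference -1.13, limma adjusted p = 0.018). That call was lost when KO replicate 1 (adjusted p = 0.0552) or KO replicate 2 was left out (0.0612), the adjusted p of the alternatives running from 0.0115 to 0.0612, and the difference was -0.75 when WT replicate 1 was left out. No formyl peptide receptor gene, through which annexin A1 acts outside the cell, was among the listed genes.

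Among 11 tested kinases and signalling genes that phosphorylate or bind annexins, 4 rose and 1 fell, with a median of 0.19. The shares over all genes tested were 34.3% called higher and 33.8% lower. Egfr and Src, whose kinases phosphorylate annexins A1 and A2, rose from 292 ± 36 to 567 ± 77 and from 102 ± 6.2 to 172 ± 14 CPM (limma adjusted p = 0.00021 and 9.3e-05). The kinase gene Trpm7 fell from 134 ± 11 to 114 ± 6.0 CPM (log2 difference -0.24, adjusted p = 0.034). Leaving out KO replicate 1 (adjusted p = 0.0996), KO replicate 3 (0.0799), WT replicate 2 (0.0678) or WT replicate 3 (0.113) took this call away, and so did library medians set equal (0.0545) and the replicate number as a block (0.0537), in a range from 0.0243 to 0.113.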

How the data were processed

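Messenger RNA libraries (Illumina stranded kit, per the labels' protocols) were made as 3 samples of each line. The submitters' processing notes name the build GRCm38 and, in no stated order, edgeR, featureCounts, Subread 1.6.4, Trimmomatic 0.39 and STAR 2.7.3a. The sources used here do not give the annotation or the strand setting. The authors deposited log2 CPM, whose values share a floor of -5.26, as a prior count would give. With the floor subtracted before taking logs, 100% of a library's values fell within 0.001 of a whole number of steps, which gave the reads, 35447096 to 42106461 per library; CPM here leaves out the prior and keeps the library scaling of the deposited values, at factors between 0.983 and 1.02.

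limma 3.58.1 (R 4.3.3, lmFit, eBayes with trend) was fitted to the deposited log2 CPM of 12616 genes above 0 in at least 3 libraries, with Benjamini-Hochberg adjustment, and 187 genes were not tested. All 8 annexins were tested genes. Lengths and positions came from GENCODE M21 and promoters from RefSeq. The members and gene lists were chosen with earlier results of these data known. The lists covered EF-hand partners, plasminogen activation, formyl peptide receptors, membrane repair, scramblases and flippases, phosphatidylserine receptors, arachidonate, kinases, copines, RNA granules, other annexins and cell type markers. The rule for named genes took from each list, among called genes whose groups did not overlap, the 2 with the largest rise and the 2 with the largest fall, plus S100a10, S100a11, S100a6, Sri and Pdcd6, the genes between Anxa2 and Myo1e and the 2 nearest in pattern to 3 members; a gene that the rule names among the RNA granule genes is not reported here.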

Additional observations from a re-analysis of the deposited data

How the results depend on the processing

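Under the 10 other settings tried, each difference of an annexin between the lines moved by less than its pooled SD between libraries. The settings were log2(CPM + 1), library medians set equal, quantile normalization, the replicate block, and each library left out. The block cannot change a balanced difference, and leaving out 1 of 3 libraries cannot move it by more than this SD. Only log2(CPM + 1), equal medians and quantile normalization could have failed this criterion. Over all 10 settings, the range was 3.70 to 3.98 for Anxa1 and -0.40 to -0.13 for Anxa2. The number of genes called, 8590, was 7573 to 8323 with 1 library left out, 8743 without a filter, 8635 on log2(CPM + 1), 8599 with voom on recovered reads, 8583 with medians set equal, 8624 after quantile normalization and 8395 with the replicate block. Same-numbered libraries correlated in their deviations at 0.10, 0.08 and -0.10, and differently numbered ones at -0.22 to 0.18. These values give no sign of pairing by number, though with 3 libraries of each line they cannot exclude it. Among the annexin partners 3 calls were lost with the block, 1 each in the kinase (Trpm7), scramblase and flippase (9 to 8) and arachidonate (6 to 5) lists. Quantile normalization left 1 of the 2 annexins outside the set called, and leaving out 1 library left 1 to 2. The Anxa5 share per length in WT was 18.8% with the longest coding transcript in place of 31.8%, which follows from the shorter lengths given to other members. S100a6 ranged from -0.34 to 0.14 with 1 library left out, changed sign without KO replicate 2 (0.14) and without WT replicate 1 (0.01), and was called under neither. The count of 4 annexins with every KO library above every WT library, an alternative chosen after seeing the data, was 4 to 6 with 1 library left out.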

Other observations

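Other proteins that bind phospholipids when calcium is present, the copines and extended synaptotagmins, differed in all 6 tested genes, 3 higher and 3 lower in KO, with a median log2 difference of 0.03, where 68.1% of all genes tested were called. Cpne8 rose from 46.5 ± 6.8 to 86.3 ± 14 CPM and Cpne5 from 0.188 ± 0.073 to 3.12 ± 0.73 CPM, while Esyt1, which joins the endoplasmic reticulum to the plasma membrane, fell from 213 ± 27 to 122 ± 13 CPM and Cpne2 from 73.4 ± 8.0 to 54.0 ± 4.6 CPM (limma, each with an adjusted p under 0.05). RNA granule genes, the cargo side of annexin A11, had 3 risen and 3 fallen members of 16 tested and a median of 0.00. Fxr2 rose from 111 ± 3.4 to 184 ± 12 CPM and the granule nucleator gene G3bp1 from 159 ± 21 to 221 ± 18 CPM, and Fmr1 fell from 97.0 ± 11 to 56.5 ± 8.2 CPM. The mean of Anxa11 over the same libraries was 37.6 ± 1.2 CPM for KO and 37.3 ± 3.4 CPM for WT.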
